A study of Homo sapiens with 22 samples.

Results

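The expression of 9 macrophage genes was followed through a culture of blood progenitors in which MYC was switched on by doxycycline: CD14, CD163, MRC1, MSR1, MARCO, VSIG4, C1QA, C1QB and C1QC. They were chosen by name as a set of scavenger receptors, complement genes and the lipopolysaccharide co-receptor CD14, and each has 1 entry, so they are 9 of the 60240 genes in the deposited table. The cells were haematopoietic progenitors made from H1, a human embryonic stem cell line. DOX libraries came from cultures treated to express ectopic MYC and were taken on days 12, 14, 16, 18 and 20 (10 libraries), and UT libraries came from untreated cultures on the same days and on day 10 (12 libraries), with 2 libraries per group. The labels give neither the day on which treatment began nor a doxycycline-treated culture without the MYC construct, so effects of MYC and of doxycycline itself cannot be told apart. Every library comes from the 1 line H1 and carries the same batch label, and nothing says whether replicates were separate cultures. The p-values accordingly speak only to how far these libraries scatter, and that scatter may be technical.

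Macrophages clear dying cells, microbes and cell debris with surface receptors that bind modified lipoproteins, sugars and lipopolysaccharide. CD14 presents lipopolysaccharide to Toll-like receptor 4, CD163 takes up haemoglobin bound to haptoglobin, and MRC1 (CD206) binds mannose-bearing sugars. MSR1 and MARCO are class A scavenger receptors, and VSIG4 (CRIg) binds C3 fragments on particles. C1QA, C1QB and C1QC encode the chains of C1q, the recognition molecule that starts the classical complement pathway. Unlike most complement proteins, which come from the liver, C1q is made chiefly by macrophages and dendritic cells, and CD163, MRC1, VSIG4 and C1q are commonly used as markers of resident tissue macrophages.

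MYC, read as a check of the labels, had 28.9 to 242 CPM (read counts scaled to library depth) in DOX libraries and 28.7 to 126 CPM in UT libraries of days 12 to 20. It averaged 0.83 higher in DOX on the log2 scale (SE 0.11, adjusted p = 4.3e-06, edgeR). MYC was not called on day 18 (log2 fold change 0.65, adjusted p = 0.051) or day 20 (0.31, adjusted p = 0.39). The counts do not separate the construct's transcript from the cell's own. Library totals were 24730502 to 53508548 counts, so that 3 counts, the floor used for a gene at 0, correspond to 0.0386 to 0.297 CPM. The share of counts from mitochondrially encoded genes averaged 11.3, 11.1, 20.2, 36.7 and 57.0% in DOX on days 12 to 20, and 10.6, 13.7, 54.7, 59.7 and 72.7% in UT on the same days. CPM were scaled by TMM, which sets the typical gene level between libraries. Scaling by library totals alone moved the median averaged difference over all tested genes to 0.60 (log2), against 0.08 with TMM. Many reversals named in the text come from that choice, and others from leaving out single libraries or from other settings. The second UT library of day 16 stood apart: 7 fibroblast markers summed to 548 CPM there and to 12.0 to 44.8 CPM in the other libraries. Results of day 16 are therefore also given without it.

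The genes lie on 7 chromosomes in GRCh38 (GENCODE 29). C1QA (1:22636506-22639608), C1QC (1:22643630-22648110) and C1QB (1:22652762-22661538) follow each other on the plus strand of chromosome 1 within 25033 bases, 4021 and 4651 bases apart. CD14 is on chromosome 5 (140631728-140633701, minus strand), CD163 on chromosome 12 (7470813-7503893, minus), MRC1 on chromosome 10 (17809344-17911170, plus), MARCO on chromosome 2 (118942166-118994660, plus) and VSIG4 on the X chromosome (66021738-66040125, minus). All 9 are protein coding. An exon of CD163 overlaps one of CD163L1 on the same strand, so some CD163 reads may belong to its neighbour, which had 823 counts in all libraries together.

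Because C1QA, C1QB and CD14 had the most similar courses of the 9 genes, their promoters are shown with that of CD163, whose course was unlike theirs. RefSeq (GRCh38.p14) promoters of 250 bases before and 50 after the start matched 6 of the genes. C1QA has 2 entries, of which that with the later start is shown, and the other held none of the letters searched for. Capitals mark the letters GAGGAA and GGAAGT, ETS cores of the kind bound by the macrophage factor PU.1, and TGCTGA, a core of the elements bound by MAF factors, on either strand. GAGGAA and GGAAGT can overlap each other by sharing GGAA.
C1QA, chr1:22636378-22636677, plus strand: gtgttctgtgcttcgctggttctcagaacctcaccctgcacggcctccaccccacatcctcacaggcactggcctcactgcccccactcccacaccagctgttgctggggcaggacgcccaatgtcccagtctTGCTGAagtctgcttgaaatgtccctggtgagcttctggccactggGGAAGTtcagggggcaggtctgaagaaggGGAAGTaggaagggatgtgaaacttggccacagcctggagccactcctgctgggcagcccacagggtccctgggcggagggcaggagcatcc
C1QB, chr1:22652986-22653285, plus strand: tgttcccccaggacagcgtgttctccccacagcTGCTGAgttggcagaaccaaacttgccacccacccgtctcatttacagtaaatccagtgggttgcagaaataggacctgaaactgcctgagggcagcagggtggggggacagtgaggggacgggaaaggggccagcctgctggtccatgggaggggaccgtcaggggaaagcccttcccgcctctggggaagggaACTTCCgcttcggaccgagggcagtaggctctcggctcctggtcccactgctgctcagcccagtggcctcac
CD14, chr5:140633126-140633425, minus strand: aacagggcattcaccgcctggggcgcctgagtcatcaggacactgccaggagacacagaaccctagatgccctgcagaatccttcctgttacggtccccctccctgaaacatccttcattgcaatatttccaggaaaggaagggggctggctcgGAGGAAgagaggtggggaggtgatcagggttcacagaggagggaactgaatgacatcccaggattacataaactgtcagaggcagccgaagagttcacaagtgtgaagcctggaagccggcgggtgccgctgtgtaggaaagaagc
CD163, chr12:7503728-7504027, minus strand: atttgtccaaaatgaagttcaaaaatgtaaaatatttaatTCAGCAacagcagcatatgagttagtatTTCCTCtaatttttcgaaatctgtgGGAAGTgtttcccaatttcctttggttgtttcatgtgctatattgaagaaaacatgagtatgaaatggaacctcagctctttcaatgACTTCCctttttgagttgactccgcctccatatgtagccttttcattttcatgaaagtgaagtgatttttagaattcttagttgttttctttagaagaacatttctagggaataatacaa

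The C1QA window held GGAAGT 2 times and TGCTGA 1 time, and the C1QB window held 1 of each. The CD14 window held GAGGAA 1 time. The CD163 window held GAGGAA 1 time, GGAAGT 2 times and TGCTGA 1 time. Any role of these letters in the courses of the genes was not tested. These letters are common: of 35116 promoters of the same length, 27.9% held GAGGAA, 22.8% GGAAGT and 17.3% TGCTGA. The MYC and MAX E-box CACGTG stood in 7.256% of promoters and in 0 of the windows of the 6 genes.

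Averaged over days 12 to 20, DOX libraries had less CD14, C1QA, C1QB, VSIG4, C1QC and MRC1 RNA than UT libraries, and CD163 had a log2 fold change of 0.20; the direction of MRC1 turned (0.16) with library totals alone. The 6 lower genes are 6 of the 7 that passed the count filter and 6 of all 9, where 23.0% of the 20115 tested genes were called lower at an adjusted p under 0.05 (edgeR). The log2 differences were -1.38 for CD14, -1.30 for VSIG4, -1.21 for C1QA, -1.13 for C1QB, -0.56 for C1QC and -0.38 for MRC1. These correspond to levels 2.60, 2.47, 2.32, 2.19, 1.48 and 1.30 times lower in DOX, in the same order. None of the 9 was called higher, where 29.8% of tested genes were. That count was also 0 at an unadjusted p under 0.05, with limma-voom and with DESeq2. The averaged calls of these 6 genes held when each of the 22 libraries was left out in turn. In bulk libraries such as these, fewer cells of a type and less RNA per cell cannot be told apart.

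**Figure D1:**
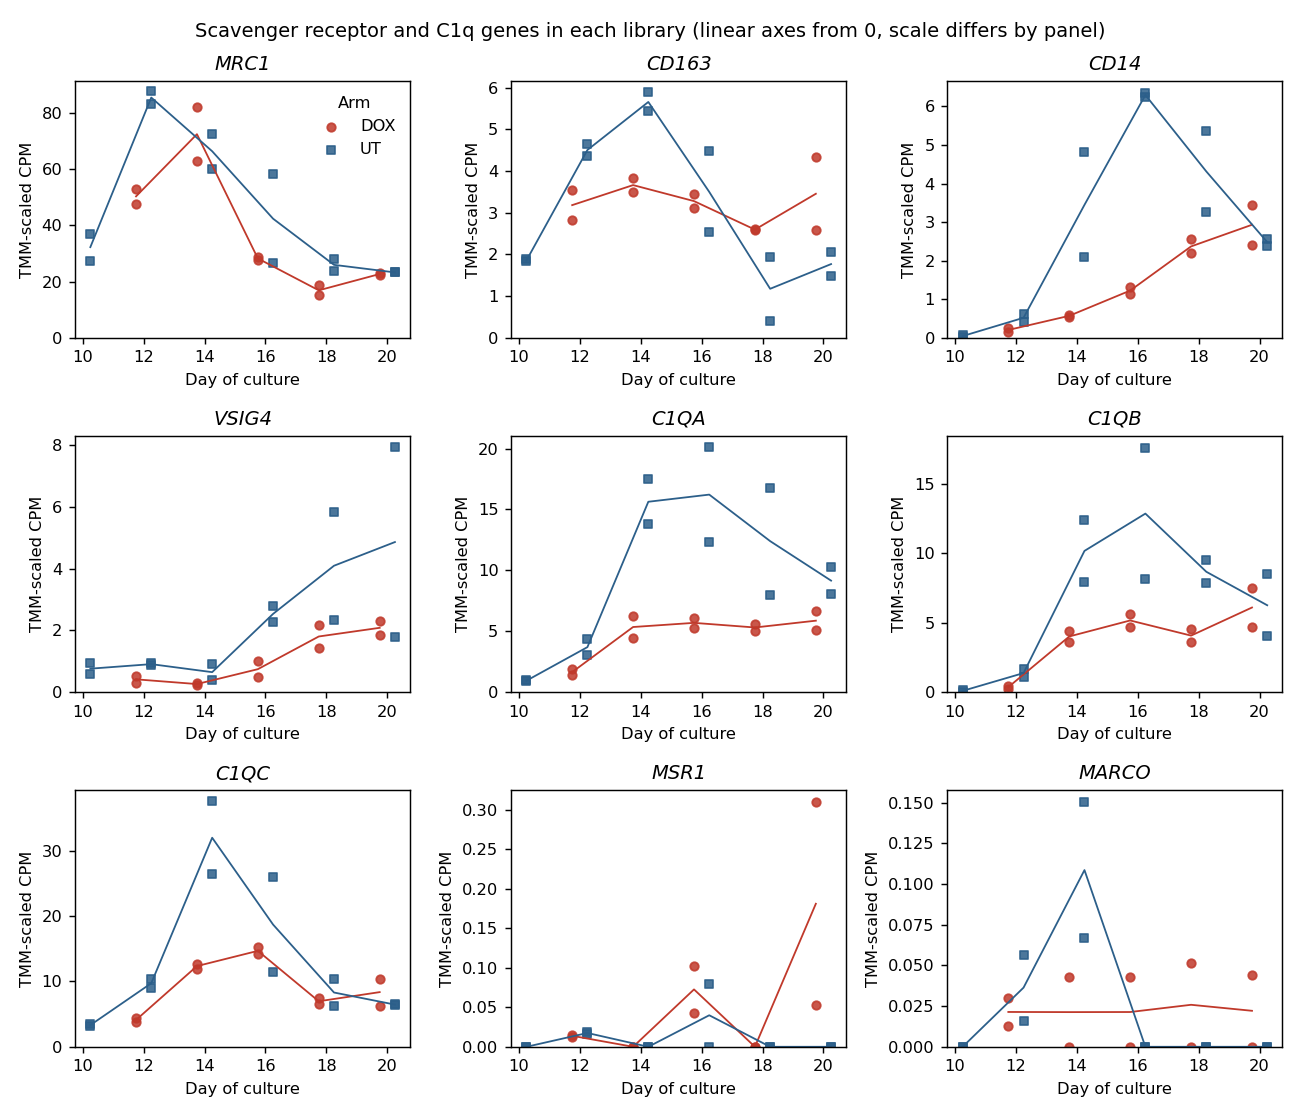
TMM-scaled CPM of each of the 9 genes (linear vertical axes) by day of culture, with 1 point per library, DOX as red circles left of UT as blue squares, and lines through group means. On day 16 CD14 stood at 1.13 and 1.32 CPM in DOX and at 6.25 and 6.34 CPM in UT, while MSR1 and MARCO stayed near 0 in both.

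MRC1 had the most reads of the 9 genes and the smallest averaged difference of the 6 that were called. DOX libraries had 47.5 and 53.0 CPM (day 12), 62.8 and 81.9 (day 14), 27.6 and 28.9 (day 16), 18.6 and 15.1 (day 18), and 23.0 and 22.4 (day 20). UT libraries had 37.0 and 27.4 CPM (day 10), 83.1 and 87.6 (day 12), 60.1 and 72.4 (day 14), 26.6 and 58.1 (day 16), 28.0 and 23.9 (day 18), and 23.2 and 23.3 (day 20). DOX lay below UT on days 12, 18 and 20 and overlapped it on days 14 and 16. The day 20 gap was very small (log2 fold change -0.036, adjusted p = 0.97), and it turned to 0.88 with library totals alone. Mean levels were highest on day 14 in DOX (72.4 CPM) and on day 12 in UT (85.4 CPM). Averaged over days the log2 fold change came to -0.38 (SE 0.11, adjusted p = 0.0076). It lost its call without day 12 (-0.28, adjusted p = 0.066) and on days 12 and 14 alone (-0.32, adjusted p = 0.19), and turned to 0.16 with library totals alone. On day 16 it was -0.59 and not called (adjusted p = 0.063); it was -1.03 and called lower without the first UT library of that day, turned to 0.099 without the second, and turned to 0.34 with library totals alone.

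CD163, the haptoglobin-haemoglobin receptor, kept a nearly even TMM-scaled level in DOX. Its log2 change from day 12 to day 20 there was 0.13 (adjusted p = 0.80, edgeR), and -1.04 with library totals alone. The UT level, followed from day 10, went up and came down. DOX libraries had 3.55 and 2.82 CPM (day 12), 3.49 and 3.83 (day 14), 3.12 and 3.44 (day 16), 2.58 and 2.61 (day 18), and 4.33 and 2.57 (day 20). UT libraries had 1.88 and 1.83 CPM (day 10), 4.64 and 4.37 (day 12), 5.88 and 5.43 (day 14), 2.53 and 4.47 (day 16), 1.94 and 0.408 (day 18), and 1.48 and 2.05 (day 20). DOX lay below UT on days 12 and 14, overlapped it on day 16, and lay above it on days 18 and 20. The day 16 log2 fold change of -0.098 turned to 0.39 without the second UT library of that day. On day 18 CD163 was called higher in DOX (log2 fold change 1.24, SE 0.47, adjusted p = 0.045). That call was lost in 15 of the 22 fits that left out 1 library, and the value was 0.43 without the second UT library of day 18, which had 8 CD163 counts, and 2.67 without the first. The averaged value of 0.20 (SE 0.19, adjusted p = 0.41) was not called. Without the first UT library of day 18 it was 0.49 and called higher (adjusted p = 0.014), with library totals alone it was 0.74 and called higher, and on days 12 and 14 alone it was -0.56 (adjusted p = 0.14). CD163L1, whose exon overlaps it, had an averaged log2 fold change of -0.44 (SE 0.25, adjusted p = 0.15).

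CD14, the lipopolysaccharide co-receptor, had the largest averaged difference of the 9 genes. DOX libraries had 0.254 and 0.154 CPM (day 12), 0.603 and 0.540 (day 14), 1.13 and 1.32 (day 16), 2.19 and 2.55 (day 18), and 3.45 and 2.42 (day 20). UT libraries had 0.0149 and 0.0772 CPM (day 10), 0.622 and 0.419 (day 12), 4.81 and 2.09 (day 14), 6.25 and 6.34 (day 16), 5.37 and 3.27 (day 18), and 2.57 and 2.39 (day 20). DOX lay below UT on days 12 to 18, and the groups overlapped on day 20, when DOX was at its highest mean and UT was past its highest mean of day 16. The averaged difference was -1.38 on the log2 scale (SE 0.20, adjusted p = 1.2e-05). CD14 was called lower on day 14 (-2.59, SE 0.44, adjusted p = 0.00028) and day 16 (-2.36, adjusted p = 0.00028), and those 2 calls held in every fit that left out 1 library. The day 14 value was -1.85 without the first UT library of that day, and the day 16 value -2.34 without the second UT library. On day 20 the log2 fold change was 0.24 (adjusted p = 0.74). The day 18 direction turned with library totals alone (0.073).

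VSIG4, the complement receptor that binds C3 fragments, had few counts: 16 to 61 in a DOX library and 21 to 80 in a UT library. DOX libraries had 0.299 and 0.540 CPM (day 12), 0.235 and 0.298 (day 14), 1.00 and 0.491 (day 16), 2.19 and 1.42 (day 18), and 1.86 and 2.31 (day 20). UT libraries had 0.582 and 0.946 CPM (day 10), 0.886 and 0.934 (day 12), 0.919 and 0.384 (day 14), 2.79 and 2.27 (day 16), 5.83 and 2.35 (day 18), and 7.91 and 1.80 (day 20). DOX lay below UT on days 12 to 18, and on day 20 both DOX libraries lay between the 2 UT libraries. Averaged over days, VSIG4 was 1.30 lower on the log2 scale (log2 fold change -1.30, SE 0.28, adjusted p = 0.00069), and on days 12 and 14 alone it was -1.19 and not called (adjusted p = 0.063). VSIG4 was called lower on day 16 (-1.75, adjusted p = 0.032), a call lost without the second DOX library (-1.32), the first UT library (-1.58) or the second UT library (-1.88) of that day. It was -2.35 without the first DOX library.

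The class A scavenger receptors MSR1 and MARCO were close to the limit of detection and were not tested. MSR1 spans 16107878 to 16567490 on the minus strand of chromosome 8 in GRCh38. MSR1 had 17 counts in the 10 DOX libraries, 7 of them in the first library of day 20, and 4 counts in the 12 UT libraries. It was at 0 in 4 DOX and 9 UT libraries. MARCO had 11 counts in DOX libraries, with 4 libraries at 0, and 17 in UT libraries, with 8 at 0. The first and second UT libraries of day 14 held 4 and 9 of the 17. On day 20 both DOX libraries lay above the UT libraries for MSR1, which were at 0, and on day 14 both DOX libraries lay below the UT libraries for MARCO. These rest on few counts and carry no test.

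All 3 C1q chains were lower in DOX averaged over days 12 to 20. C1QA had 1.91 and 1.40 CPM in DOX (day 12), 6.28 and 4.43 (day 14), 5.31 and 6.09 (day 16), 5.63 and 5.00 (day 18), and 5.09 and 6.67 (day 20). UT libraries had 0.985 and 0.926 CPM (day 10), 4.34 and 3.08 (day 12), 17.5 and 13.8 (day 14), 12.3 and 20.1 (day 16), 16.8 and 8.01 (day 18), and 10.3 and 8.04 (day 20). Every DOX library lay below both UT libraries of its day. Over the 5 days the log2 fold change averaged -1.21 (SE 0.14, adjusted p = 1.1e-06). Calls came on days 14 (-1.54, adjusted p = 0.0011), 16 (-1.51, adjusted p = 0.00085) and 18 (-1.21, adjusted p = 0.0069). Without the second UT library of day 16 the day 16 value was -1.10 (adjusted p = 0.027). The day 18 call was lost without the first UT library (-0.59) or the second DOX library (-1.11) of that day, and the day 20 value of -0.64 (adjusted p = 0.17) turned to 0.25 with library totals alone.

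C1QB had 0.479 and 0.270 CPM in DOX (day 12), 4.39 and 3.65 (day 14), 5.66 and 4.68 (day 16), 4.52 and 3.64 (day 18), and 7.47 and 4.73 (day 20). UT libraries had 0.149 and 0.0579 CPM (day 10), 1.66 and 1.11 (day 12), 12.4 and 7.96 (day 14), 8.12 and 17.6 (day 16), 9.49 and 7.86 (day 18), and 8.51 and 4.02 (day 20). DOX lay below UT on days 12 to 18 and overlapped it on day 20. C1QB averaged -1.13 (SE 0.18, adjusted p = 4.1e-05) on the log2 scale and was called lower on days 12 (-1.89, adjusted p = 0.031), 14 (-1.34, adjusted p = 0.014), 16 (-1.32, adjusted p = 0.011) and 18 (-1.09, adjusted p = 0.042). Each of these daily calls depended on single libraries. That of day 12 was lost without any of its 4 libraries, at most to an adjusted p of 0.38, and that of day 18 in 9 of 22 fits. That of day 14 was lost without its first DOX (-1.46), second DOX (-1.20) or first UT library (-0.98), and that of day 16 without its second UT (-0.64) or second DOX library (-1.17). On day 20 the log2 fold change was -0.02, and it turned to 0.89 with library totals alone.

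C1QC had 3.81 and 4.40 CPM in DOX (day 12), 12.0 and 12.7 (day 14), 15.2 and 14.1 (day 16), 6.53 and 7.40 (day 18), and 10.4 and 6.30 (day 20). UT libraries had 3.43 and 3.20 CPM (day 10), 10.4 and 9.02 (day 12), 37.6 and 26.4 (day 14), 11.4 and 26.0 (day 16), 10.3 and 6.28 (day 18), and 6.33 and 6.58 (day 20). DOX lay below UT on days 12 and 14 and overlapped it on days 16, 18 and 20. C1QC was called lower on day 12 (-1.24, SE 0.31, adjusted p = 0.031), a call lost without any of that day's 4 libraries, and on day 14 (-1.37, adjusted p = 0.0021). Over the 5 days its log2 fold change averaged -0.56 (SE 0.14, adjusted p = 0.0022). It was -0.36 and not called without day 14 (adjusted p = 0.065), and -0.02 with library totals alone. Its log2 fold changes were -0.35 on day 16 (adjusted p = 0.37) and 0.38 on day 20 (adjusted p = 0.44), and the first of these turned to 0.58 with library totals alone and to 0.37 without the second UT library of that day. Without the first UT library it was -0.81 and called lower (adjusted p = 0.034).

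Read by day, the genes called lower numbered 2, 4, 4 and 2 of the 9 on days 12, 14, 16 and 18, where 2.26, 11.7, 18.7 and 16.0% of tested genes were. Without the second UT library of day 16, the library rich in fibroblast markers, 2 were called lower on day 16, CD14 and C1QA. The genes called lower were C1QB and C1QC on day 12, CD14 and the 3 C1q chains on day 14, CD14, C1QA, C1QB and VSIG4 on day 16, and C1QA and C1QB on day 18. CD163 on day 18 was the only gene of the 9 called higher on any single day. The share of tested genes called higher was 0.845, 15.3, 21.2 and 19.8% on days 12 to 18. On day 20 none of the 9 was called in either direction by edgeR, limma-voom or DESeq2, where 11.9% of tested genes were called lower and 15.9% higher. At an unadjusted p under 0.05 the day 20 counts were 0 lower and 1 higher, CD163 (log2 fold change 0.96, unadjusted p = 0.049). With library totals alone CD14 was the only one of the 9 called lower on day 16, 0 were called lower on day 18, and CD14 (1.17), CD163 (1.91), MRC1 (0.88) and C1QC (1.32) were called higher on day 20. On days 12 and 14 the mean mitochondrial shares were closer between the arms than on later days. The 2 UT libraries of day 14 had shares of 17.5 and 9.95%, however. Their counts differed more than those of any other pair (chi-square per degree of freedom 100.6, next 44.7 in DOX of day 14). That statistic includes mitochondrially encoded genes, so it is not separate from these shares. On days 12 and 14 alone CD14 (-1.97), C1QB (-1.61), C1QA (-1.35) and C1QC (-1.31) were called lower, where 10.8% of tested genes were.

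**Figure D2:**
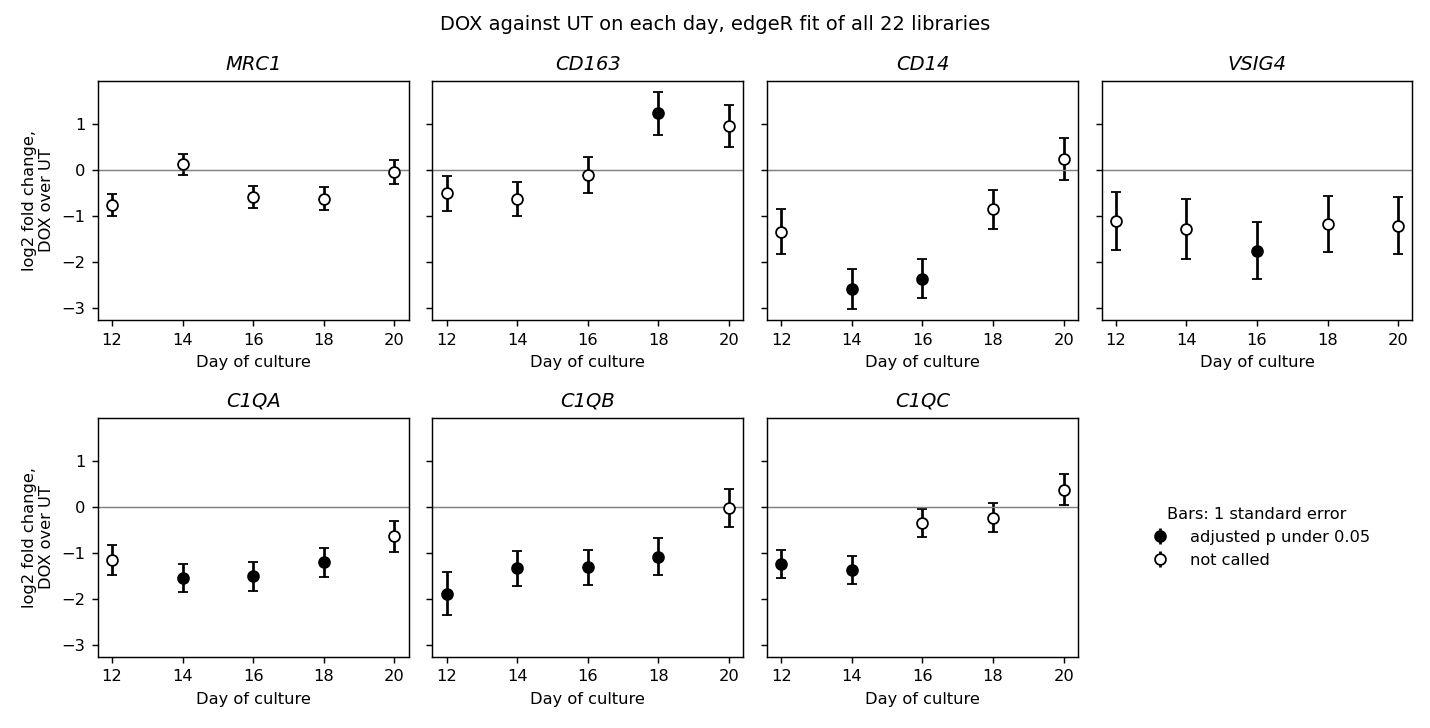
Log2 fold change of DOX over UT (±1 SE) by day of culture for the 7 tested genes, with filled points where the adjusted p was under 0.05 (edgeR, TMM). CD14 stands at -2.59, -2.36 and 0.24 on days 14, 16 and 20.

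The course of each arm was also compared with its own early days. In UT libraries CD14, C1QB, C1QA, C1QC and VSIG4 were called higher on day 16 than on day 10, 5 of the 9 genes where 26.7% of tested genes were called higher and 29.3% lower. CD14 had 300 counts on day 16 against 5 on day 10, a ratio of 149.8 in scaled counts (95% exact interval 63.46 to 464.6, counting error only). C1QB had 624 counts against 13, a ratio of 119.8 (69.55 to 226.3). The fitted log2 difference was 7.11 for CD14, 6.28 without the first and 8.44 without the second UT library of day 10. For C1QB it was 6.86, 7.70 without the first UT library of day 10 and 6.17 without the second of day 16. C1QA differed by 4.08 (adjusted p = 2.3e-08) and C1QC by 2.50 (adjusted p = 2.4e-06) on the log2 scale. VSIG4 differed by 1.73 (adjusted p = 0.024) and lost its call without the first UT library of day 10 (1.40) or of day 16 (1.56). Without the second UT library of day 16 the differences were 7.08 for CD14, 3.67 for C1QA, 1.77 for C1QC and 1.86 for VSIG4. By day 20 the same 5 genes were called higher than on day 10 in UT, although C1QC turned to -1.22 with library totals alone, where 28.1% of tested genes were called higher and 34.2% lower. The log2 differences were then 5.76 for CD14, 5.81 for C1QB, 3.25 for C1QA, 2.66 for VSIG4 and 0.96 for C1QC. That of CD14 was 4.92 without the first and 7.09 without the second UT library of day 10, and that of C1QB was 6.65 without the first UT library of day 10 and 5.15 without the first of day 20. That of VSIG4 was 1.21 and not called without the first UT library of day 20, and 3.35 without the second. That of C1QC was lost without any library of the 2 days. With library totals alone the VSIG4 calls of both days were lost (0.60 and 0.53).

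On day 20 CD14, C1QA, C1QB and VSIG4 were called higher than on day 12 and MRC1 lower in both arms, although C1QA in UT turned to -0.86 with library totals alone. In DOX the log2 change was 3.84 for CD14 (adjusted p = 2.5e-06), 4.03 for C1QB (7.1e-07), 2.29 for VSIG4 (0.0055), 1.82 for C1QA (0.00014) and 1.03 for C1QC (0.0095), so 5 of the 9 were called higher on day 20, where 26.7% of tested genes were. The VSIG4 call was lost without the first DOX library of day 12 (1.91), and the C1QC call without that library (0.91) or the first DOX library of day 20 (0.59). C1QC turned to -0.13 with library totals alone. In UT the change was 2.25 for CD14 (adjusted p = 0.00047), 2.17 for C1QB (0.00027), 2.40 for VSIG4 (0.003) and 1.30 for C1QA (0.0023), 4 of the 9 where 27.6% of tested genes were called higher. Without the first UT library of day 20 VSIG4 was 0.95 and not called and C1QB was 1.51, and without the second VSIG4 was 3.09. With library totals alone the UT calls of CD14 (0.088), C1QB (0.024) and VSIG4 (0.29) were lost, as were the DOX calls of C1QA (0.62) and VSIG4 (1.11). MRC1 fell by 1.15 in DOX (adjusted p = 0.00065; 29.7% of tested genes were called lower) and by 1.88 in UT (adjusted p = 4.5e-06; 32.9% lower). In UT CD163 also fell, by 1.34 (adjusted p = 0.014), a call lost without the first UT library of day 20 (-1.16).

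Whether these changes differed between the arms was tested as an interaction. The day 20 DOX over UT difference exceeded that of day 12 by 1.62 for C1QC (SE 0.46, adjusted p = 0.032), the only call among the 9 genes, where 5.62% of tested genes were called in that direction and 3.34% in the other. It was lost in 7 of 22 fits that left out 1 library (values of 1.21 to 1.94) and with limma-voom (adjusted p = 0.11). For C1QB the value was 1.87 (adjusted p = 0.068), for CD14 1.59 (adjusted p = 0.15) and for CD163 1.46 (adjusted p = 0.14). With library totals alone 6 of the 9 were called in the same direction, from 1.48 for C1QA to 2.84 for C1QB. A test for any difference between days in the DOX over UT difference called CD14 (adjusted p = 0.0089) and C1QC (adjusted p = 0.021), 2 of the 9 genes where 31.4% of tested genes were called.

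The C1q protein needs all 3 chains, and their RNAs did not keep 1 proportion. In DOX the log2 ratio of C1QB to C1QC counts had means of -3.48, -1.62, -1.51, -0.78 and -0.45 on days 12 to 20. In UT it was -5.01 on day 10 and -2.83, -1.67, -0.53, 0.10 and -0.14 on days 12 to 20. The ratio thus ran upward with time in DOX, and in UT up to day 18. The UT libraries of day 20 stood at 0.42 and -0.71, and the UT value of day 10 rested on 13 C1QB counts. Averaged over the shared days it was -1.57 in DOX and -1.01 in UT, a difference of -0.56, with DOX lower on 4 of 5 days. The C1QA to C1QC ratio was -0.95 in DOX and -0.31 in UT, a difference of -0.65, again lower on 4 of 5 days. The C1QB to C1QA ratio was -0.61 in DOX and -0.70 in UT, a difference of 0.09. An exact two-sided permutation test within days, chosen after these values had been seen, gave p = 0.012, 0.0064 and 0.65 for the 3 ratios (0.017, 0.017 and 0.65 adjusted over 3 tests; the smallest p it allows is 0.00026). On days 12 and 14 alone the differences were -0.31, -0.058 and -0.25 in the same order, and with so few libraries the exact test cannot reach 0.05. Without the second UT library of day 16 the 3 differences were -0.56, -0.69 and 0.13. Ratios within a library do not depend on how libraries are scaled.

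**Figure D3:**
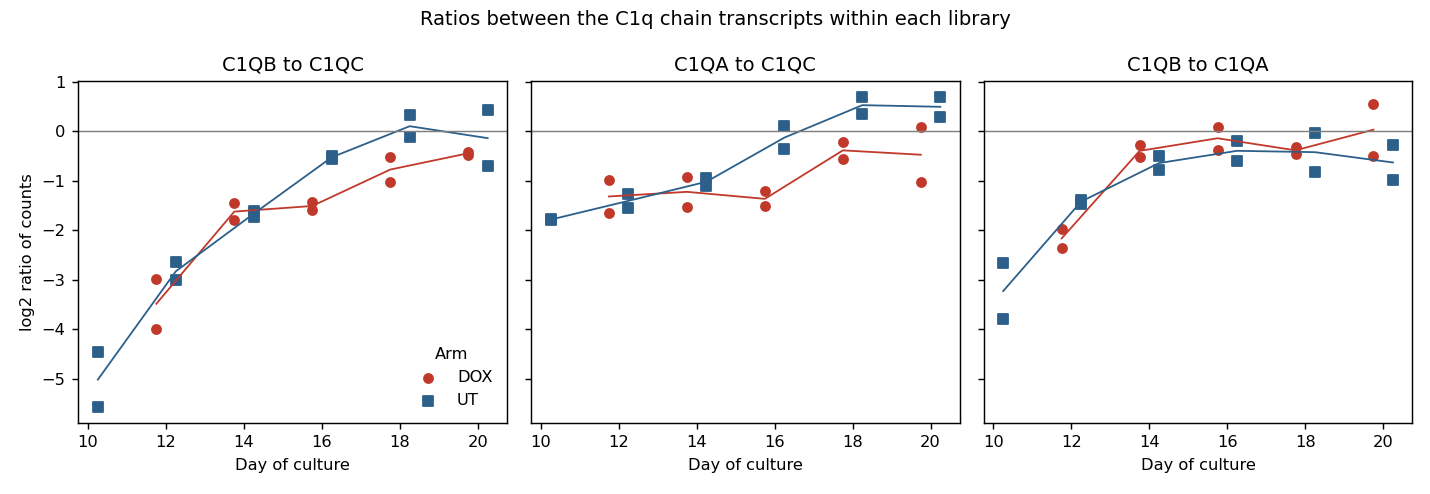
Log2 ratio of counts (0.5 added to each) between C1q chains within each library, by day of culture, with DOX as red circles left of UT as blue squares and lines through group means. On day 16 the C1QA to C1QC ratio averaged -1.37 in DOX and -0.13 in UT.

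Per kilobase of gene model the C1q chains and MRC1 had the highest mean levels of the 9 genes on day 14 in both arms. This did not hold in every group: C1QB averaged 0.234 CPM per kb in DOX on day 12, below CD163 at 0.547, and 0.0647 in UT on day 10, below VSIG4 at 0.348. On day 14 C1QC had 9.25 ± 0.41 CPM per kb in DOX and 24.0 ± 5.93 in UT (SD, n = 2 each). MRC1 had 13.9 ± 2.60 in DOX and 12.8 ± 1.67 in UT, and C1QA had 4.21 ± 1.03 in DOX and 12.3 ± 2.05 in UT. C1QB followed with 2.51 ± 0.33 in DOX and 6.35 ± 1.95 in UT. In UT on that day MRC1 and C1QA did not differ beyond their spread. CD163 had 0.630 ± 0.042 in DOX and 0.973 ± 0.056 in UT, CD14 had 0.303 ± 0.024 in DOX and 1.83 ± 1.02 in UT, and VSIG4 had 0.122 ± 0.020 in DOX and 0.297 ± 0.17 in UT. CD14 and CD163 thus stood in opposite orders in the 2 arms, and in UT their difference was within the spread of CD14.

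Across the 22 libraries, which share days and depth differences, C1QA and C1QB followed each other with a Pearson r of 0.952 on log2 CPM. CD14 followed C1QB (0.931) and C1QA (0.926), whereas C1QC followed C1QA (0.761) and C1QB (0.741) less closely. CD14 and VSIG4 had an r of 0.621. MRC1 followed CD163 (0.568) and ran opposite to VSIG4 (-0.601). CD14 and CD163 had an r of -0.0045. These are descriptions over libraries of 11 groups and carry no test.

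Among 11427 other genes, those whose course was most like C1QA were CD74 (0.974), CTSS (0.968) and SLAMF7 (0.963), and those most like C1QB were CD74 (0.968), MS4A7 (0.965) and PLA2G7 (0.961). CD74 is the invariant chain of MHC class II, and CTSS the protease that processes it. C1QC was most like HLA-DRB1 (0.902), LYZ (0.899) and CST3 (0.892). CD14 was most like OSM (0.975), FST (0.973) and ANXA1 (0.969). MRC1 was most like IL13RA1 (0.929), IFI16 (0.924) and B3GNT5 (0.889). For VSIG4 these were KLC2 (0.923), SLC8B1 (0.914) and ZC3H3 (0.911), and for CD163 PDGFA (0.830), ZNF222 (0.827) and LIPT2 (0.798). Over the 11 group means only 1 of the 3 nearest genes was shared for CD14, VSIG4 and C1QB, 2 for MRC1, C1QA and C1QC, and 0 for CD163.

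Other genes of the same pathways were read on the averaged DOX over UT difference, from lists of known members; the list counts stand beside 23.0% called lower and 29.8% called higher over all tested genes. Of the complement receptors, all 8 tested of 9 listed were lower in DOX, with a median log2 fold change of -1.31 against 0.08 over all tested genes. CR1, the receptor for C3b and C4b, averaged 5.71 CPM in DOX and 20.6 in UT (-1.95, SE 0.10, adjusted p = 2.9e-11). ITGAM, the alpha chain of complement receptor 3, averaged 12.3 CPM in DOX and 48.6 in UT (-1.87, adjusted p = 8.5e-11). C5AR2 (-1.80) and ITGB2, the beta chain of that receptor (-0.82), were also lower. Of the complement components 3 of 13 tested were higher and 4 lower (median -0.36), shares near those over all genes, and the higher count was 1 with limma-voom. The higher C4A (0.47) and C4B (0.97) are near-identical copies whose counts are uncertain. FCN1, the ficolin that starts the lectin pathway, averaged 20.7 CPM in DOX and 78.5 in UT (-1.91, adjusted p = 4.1e-11). C8G, a chain of the C8 component (-2.36, adjusted p = 0.014), rested on 47 counts in DOX and 82 in UT and was -1.18 and not called without the second UT library of day 16. MASP1, a protease of the lectin pathway (1.86, adjusted p = 0.031), was higher in DOX on only 2 of 5 days, was 0.62 and not called without the second DOX library of day 20, and had a value of -0.51 on days 12 and 14 alone.

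Complement regulators were 2 higher and 3 lower of 7 tested (median -0.24). CLU, or clusterin, averaged 23.9 CPM in DOX and 70.9 in UT (-1.50), and CD59, which blocks the membrane attack complex, 24.9 and 49.5 CPM (-0.96). CD55, which speeds the decay of C3 convertases, averaged 50.1 CPM in DOX and 34.0 in UT (0.97), and CD46, a cofactor for C3b cleavage, 153 CPM in DOX and 124 in UT (0.56). Of the other scavenger receptors 2 of 15 tested were higher and 7 lower (median -0.39). STAB1, or stabilin-1, averaged 23.7 CPM in DOX and 48.0 in UT (-1.05) and AGER, the receptor for advanced glycation end products, 19.3 and 37.3 CPM (-0.93). SCARF1 averaged 17.5 CPM in DOX and 12.0 in UT (0.96), and SCARB1, a receptor for high-density lipoprotein, 57.0 and 44.2 CPM (0.36). Of 5 tested mannose receptor relatives and lectins 1 was called, and it was lower (median -0.10), namely CLEC10A, at 5.44 CPM in DOX and 11.1 in UT (-1.07). MRC2 had a log2 fold change of 0.13 (adjusted p = 0.38).

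Of 16 genes of lipopolysaccharide and Toll-like receptor sensing, 10 were lower and 2 higher (median -0.45). MYD88, the adaptor of most Toll-like receptors, averaged 25.7 CPM in DOX and 35.6 in UT (-0.47, adjusted p = 0.00018), which turned to 0.072 with library totals alone. Some of the calls rested on few counts. LY96, which binds lipopolysaccharide beside TLR4, had 152 counts in DOX and 177 in UT (-1.01, adjusted p = 0.026), a call lost in 7 of 22 fits without 1 library. TLR7 had 119 and 179 counts (-1.45, adjusted p = 0.022) and a value of -0.18 without the second UT library of day 20. LBP, the plasma protein that hands lipopolysaccharide to CD14, had 74 counts in DOX and 29 in UT (adjusted p = 0.03), a call lost in 9 of 22 fits. Of 9 haem and iron genes 3 were higher and 5 lower (median -0.23). HP, or haptoglobin, whose complex with haemoglobin CD163 takes up, averaged 3.31 CPM in DOX and 10.9 in UT (-1.66). SLC11A1, a metal ion transporter of the phagosome membrane, averaged 5.71 and 13.0 CPM (-1.29). BLVRA, which turns biliverdin into bilirubin, averaged 15.5 CPM in DOX and 6.22 in UT (1.27), and ferritin light chain FTL 1645 CPM in DOX and 2380 in UT (-0.59; -0.049 and not called with library totals alone).

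Of 13 tested macrophage transcription factors 12 were lower (median -0.62). MAF averaged 7.14 CPM in DOX and 18.4 in UT (-1.38), and CEBPB 39.5 CPM in DOX and 88.3 in UT (-1.23). SPI1, which encodes PU.1, averaged 73.3 CPM in DOX and 103 in UT (-0.51, adjusted p = 1.9e-05), which turned to 0.031 with library totals alone. Of 13 genes of apoptotic cell uptake, 5 were higher and 3 lower (median 0.22). PROS1, or protein S, which bridges dying cells to the TAM receptors, averaged 32.7 CPM in DOX and 19.7 in UT (1.47). ELMO1 averaged 60.4 and 53.7 CPM (0.22) and CD300LB 0.628 and 2.77 CPM (-1.59). PROS1 was higher in DOX on 4 days and ELMO1 on only 3, while CD300LB was lower on all 5. Library totals alone moved many of these counts. The higher count became 6 for complement components, 4 for regulators, 3 for mannose receptor relatives, 5 for lipopolysaccharide sensing, 5 for haem and iron, 2 for transcription factors and 8 for apoptotic cell uptake. The lower count became 2 for other scavenger receptors, 0 for lipopolysaccharide sensing, 2 for haem and iron and 4 for transcription factors.

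**Figure D4:**
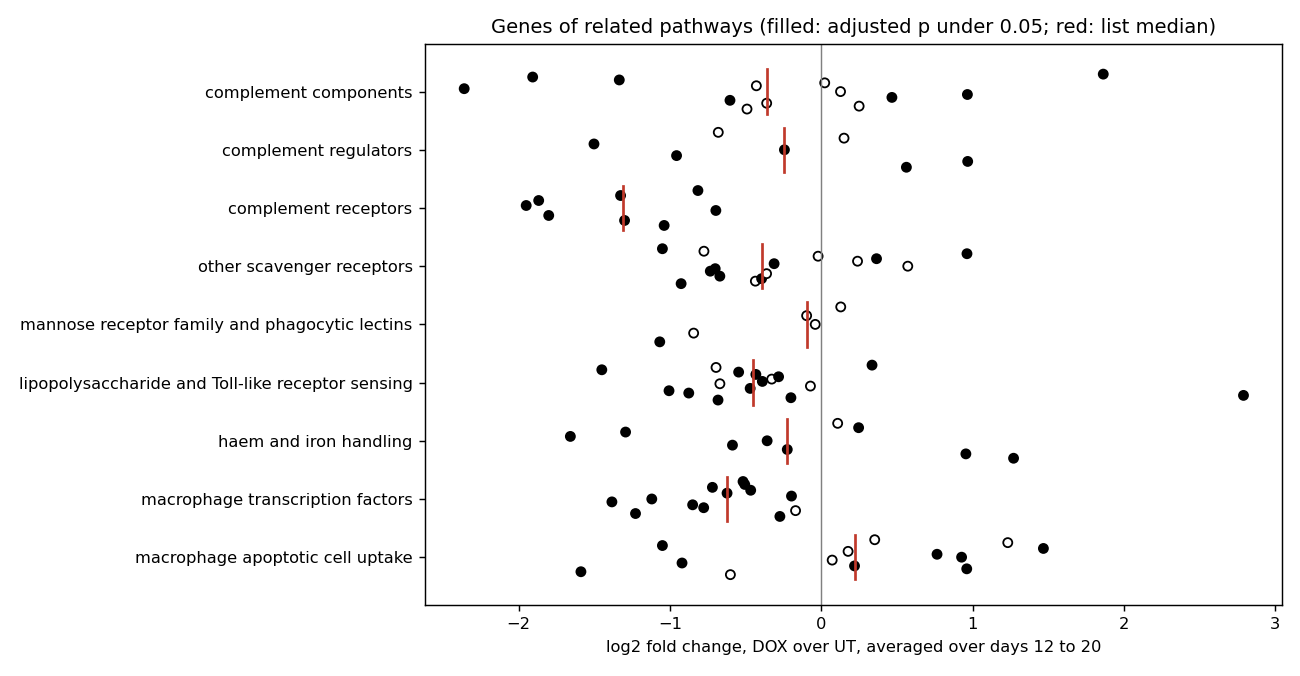
Averaged log2 fold change of DOX over UT (edgeR, TMM) for every tested gene of 9 pathway lists, with filled points where the adjusted p was under 0.05 and a red mark at each list's median. The medians run from -1.31 for complement receptors to 0.22 for apoptotic cell uptake.

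Markers of several cell types were present, and they moved in different directions. Of 20 monocyte and macrophage markers outside the 9 genes, 14 were lower in DOX and 2 higher (median -0.66), and 8 were lower with library totals alone. Their summed level on day 14 was 384 to 431 CPM in DOX and 772 to 922 CPM in UT, and on day 20 it was 344 to 429 CPM in DOX and 543 to 608 CPM in UT, so the groups did not overlap. Of these markers S100A12 was at 0 in UT on day 10 and TIMD4 in UT on days 16 and 20. Averaged over days, 9 of 10 neutrophil granule markers and 6 of 7 dendritic cell markers were also lower in DOX. So were 9 of 10 mast cell, basophil and eosinophil markers. Higher on average were 9 of 10 erythroid, 8 of 8 megakaryocyte and 6 of 7 endothelial markers. Over all tested genes 23.0% were lower and 29.8% higher. These higher counts did not hold on the early days. On day 12, 1 erythroid marker was higher and 2 megakaryocyte markers lower, where 0.845% of tested genes were higher and 2.26% lower. Day 14 had 3 erythroid markers higher and 4 lower, 2 megakaryocyte higher and 3 lower, and 1 endothelial higher (15.3% and 11.7% of tested genes). Of 7 fibroblast markers 1 was lower averaged over days (median -1.03). On day 16 alone 6 were lower in DOX (median -3.20), and 5 were higher in UT on day 16 than on day 10 (median 3.94), both with the UT library that stood apart. Stem and progenitor markers summed to 285 to 480 CPM in DOX and 331 to 494 CPM in UT on days 12 to 20. Of 10 tested, 2 were higher and 4 lower in DOX averaged over days (median -0.27). Their sum does not establish that the cells were progenitors. Other lists had larger sums on day 20. Mast cell, basophil and eosinophil markers summed to 10766 to 11574 CPM in DOX and 20460 to 24367 CPM in UT. Neutrophil granule markers summed to 1914 to 1969 CPM in DOX and 3972 to 4209 CPM in UT. The libraries labelled as progenitors thus also held RNA of granulocyte and mast cell genes. The lists hold different genes, so their sums do not rank cell types or stages. The part of these cell types in the results for the 9 genes was not tested.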

How the data were processed

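RNA was measured by polyA-selected RNA-seq in 22 libraries. The authors deposited 1 table of estimated counts per gene and library, not normalized; per the submitters' processing notes Trim Galore 0.6.5, STAR, Salmon and hg38 were used, and which STAR and Salmon versions, annotation and strand setting were used is not given in the sources used here. Of the values 88.3% were whole (within 1e-9), and all were rounded. Without a stated strand setting, reads of overlapping genes may be shared. Identifiers matched GENCODE 29 for 58020 of 60240 genes.

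Genes were kept with filterByExpr (minimum count 10; 20115 tested), scaled by TMM and fitted over all 22 libraries with edgeR 4.0.16 (quasi-likelihood, 1 mean per group, 11 residual degrees of freedom), with Benjamini-Hochberg adjustment over all tested genes and a threshold of 0.05. The averaged comparison gives days 12 to 20 equal weight. CPM are counts scaled to the TMM-adjusted library total. The fit was tested on simulated counts without differences between days or in mitochondrial share, so that test does not bear on library scaling. R 4.3.3 with limma 3.58.1 (voom) and DESeq2 1.42.0 ran the other fits, and Python 3.11.15 (pandas 2.3.3, numpy 2.4.6, matplotlib 3.10.9) did the rest. Floors and count intervals cover counting error only.

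Alternatives were DESeq2 size factors, library totals alone, limma-voom, DESeq2, no count filter, a filter of 1 CPM in at least 4 libraries, a replicate block, mitochondrially encoded genes removed, days left out, and each library left out in turn. The genes and lists were chosen with earlier results of these data known. From each list the text names up to 3 called genes with the largest averaged difference and its most abundant gene; 1 gene that this rule names is not reported here. For each tested gene it names the 3 genes with the highest Pearson r of log2 CPM (prior count 2) among those averaging a log2 CPM of at least 1. Gene levels are compared only per kilobase of merged exons.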

Additional observations from a re-analysis of the deposited data

Results flagged for a closer look

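In C1QC the DOX over UT difference itself changed between days. It was 1.62 higher on the log2 scale on day 20 than on day 12 (adjusted p = 0.032, edgeR), and the test for any difference between days gave an adjusted p of 0.021. For CD14 the test for any difference between days gave an adjusted p of 0.0089, with log2 fold changes of DOX over UT of -2.59 on day 14 and 0.24 on day 20. The C1QC change from day 12 to day 20 was lost in 7 of 22 fits that left out 1 library.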

How the results depend on the processing

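Verdicts were counted over the log2 fold changes of the tested genes among the 9, without the pathway lists or the C1q ratios. The fits that left out 1 library gave 1591 unchanged verdicts, 61 lost calls, 25 gained calls and 17 reversals. The other settings gave 574, 23, 36 and 25. Removing mitochondrially encoded genes changed no call.

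Library totals alone moved most. With them, the averaged comparison called 1 gene higher and gave MRC1 0.16, MYD88 0.072 and SPI1 0.031. On day 16, 1 gene was called lower, with CD163 at 0.83, MRC1 at 0.34 and C1QC at 0.58. On day 18, 0 were called lower, with CD14 at 0.073, MRC1 at 0.30 and C1QC at 0.69. On day 20, 4 were called higher, with MRC1 at 0.88, C1QA at 0.25 and C1QB at 0.89. UT day 16 against day 10 called 1 lower, with CD163 at -0.22 and MRC1 at -0.74. UT day 20 against day 10 called 3 higher and 3 lower, with C1QC at -1.22. DOX day 20 against day 12 called 2 higher and 2 lower, with CD163 at -1.04 and C1QC at -0.13. UT day 20 against day 12 called 0 higher and 4 lower, with C1QA at -0.86. The interaction called 6 higher, with VSIG4 at 0.82, and the test for any difference between days called 6. The calls over all genes became 11581 higher and 1609 lower, against 6002 and 4633 with TMM.

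With DESeq2 size factors 0 genes were higher on day 18, as with the filter of 1 CPM in 4 libraries, and CD163 in UT day 20 against day 10 was 0.047 and 0.10. Without a filter, 4 were lower on day 12, C1QB on day 20 was 0.0022, UT day 20 against day 10 called 1 lower, the interaction 3 higher and the test for any difference 5. With limma-voom 1 was lower on day 18, C1QB on day 20 was 0.075, the interaction called 0 (1 with edgeR) and VSIG4 there was 0.33. DESeq2 called 4 lower on day 12 and 2 in the interaction, with CD163 in UT day 20 against day 10 at 0.047. On days 12 and 14 alone the averaged values were -0.56 for CD163, -0.51 for MASP1 and -0.32 for MRC2, and the C1q ratio differences -0.31, -0.058 and -0.25. Without day 18 CD163 was -0.066 and MRC2 -0.16.

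Same-numbered libraries deviated together only weakly: r exceeded 0.1 in 5 of 55 group pairs (median 0.038, from -0.016 to 0.195), although its mean was above 0 in 11 of 11 groups, a hint from the data and not the design. The numbers were not used to pair. A replicate block brought the interaction to 2 calls, adding C1QB (1.88, adjusted p = 0.034), added C1QA on day 12 (-1.16, adjusted p = 0.038) and changed no other call among the 9 genes.

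Leaving out 1 library gave 0 to 1 genes higher averaged, 0 to 3 lower on day 12, 2 to 5 lower on day 16, and 0 to 1 higher and 0 to 3 lower on day 18. On day 20 it gave 0 to 1 higher (1 without the first UT library of day 18) and 0 to 1 lower (1 without the second UT library of day 20). UT day 20 against day 10 gave 3 to 5 higher and 0 to 1 lower, DOX day 20 against day 12 gave 3 to 5 higher and UT day 20 against day 12 gave 1 to 3 lower. The interaction gave 0 to 2 higher and the test for any difference 1 to 4. Values that crossed 0 were MRC1 on day 14 (-0.067 to 0.32) and day 16 (-1.03 to 0.10), CD163 on day 16 (-0.43 to 0.39), and C1QC on days 16 (-0.81 to 0.37), 18 (-0.55 to 0.16) and 20 (-0.029 to 0.70). Others on day 20 were CD14 (-0.032 to 0.49), VSIG4 (-1.92 to 0.22) and C1QB (-0.47 to 0.62). Over time they were MRC1 in UT day 16 against day 10 (-0.30 to 0.83), CD163 in UT day 20 against day 10 (-0.35 to 0.11) and DOX day 20 against day 12 (-0.33 to 0.42), the VSIG4 interaction (-0.82 to 1.32) and the C1QB to C1QA ratio (-0.014 to 0.20). The cause of these changes was not tested.

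Low counts left MSR1 and MARCO untested, and 2 libraries per group made several daily calls depend on 1 library.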
